A study of Homo sapiens with 8 samples.

Results

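Collagens are extracellular matrix proteins built from 3 chains that wind into a triple helix, and each chain is encoded by a COL gene. The set described here is 35 human collagen genes, taken by name, with every probe set that the platform annotation maps to exactly 1 of them. Of these, 34 were measured, through 94 probe sets, among 19775 genes in all, and a gene was represented by its brightest probe set, judged by the 8-array mean. COL17A1, a transmembrane collagen of hemidesmosomes, was matched by no probe set of unambiguous name and was not analysed here. The 35 genes fall into 10 fibrillar collagens, 6 basement membrane collagens of type IV and 19 other collagens.

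MDA-MB-231, a human basal-like, oestrogen receptor-negative breast cancer cell line, was transfected with siRNA, and total RNA was taken at 72 h. In the siCTRL group (4 arrays) the siRNA was a control, and in the siHMGA1 group (4 arrays) it was directed at HMGA1. HMGA1 is a non-histone protein of chromatin that attaches to stretches rich in A and T. Both groups were the same line and by the labels they differed in the siRNA. The comparison asks how HMGA1 silencing moved the messages of the matrix scaffold in these cells. The sample titles carry exp and a replicate number in each group. They do not say whether the biological replicates came from separate cultures, so a p-value measures the spread between these arrays.

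Fibrillar collagens (types I, II, III, V, XI and XXVII) assemble into banded fibres, which give tissue its tensile strength. Type IV chains, in contrast, join into the flat network of the basement membrane, the sheet that carcinoma cells cross when they invade. The other collagens include the beaded filaments of type VI, the anchoring fibrils of type VII, the short-chain networks of types VIII and X, the fibril-associated collagens with interrupted helices (FACITs), the transmembrane type XIII and the multiplexins XV and XVIII, which sit at basement membranes. In breast tumours much of the fibrillar collagen is made by stromal fibroblasts, while carcinoma cells also make collagens of their own.

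The log2 signal of HMGA1 fell by 2.42 (standard error 0.0956, limma adjusted p = 2.46e-08), by its brightest probe set. Its second probe set went from 8.24 in siCTRL to 7.34 in siHMGA1 (log2 fold change -0.90, limma adjusted p = 0.0011 over all probe sets). The size of the fall thus differed between probe sets. The 8 arrays had mean log2 signals of 6.57 to 6.58, and pairs of arrays correlated at 0.995 to 0.998 within a group and at 0.989 to 0.992 between groups. Of 6 markers of this line, VIM, CD44, AXL, CAV1 and MSN had bright signals, while SPARC had a mean of 4.88 in siCTRL. Of 6 luminal markers, ESR1 (6.51 in siCTRL), GATA3, AGR2 and TFF1 had a mean of 6 or more, and PGR and FOXA1 were under 6. Over all 8 arrays the 6 luminal markers had a median level of 8.13, and the brightest was at 11.4. At a limma adjusted p under 0.05, 1 was higher in siHMGA1 and 1 lower, beside 15.8% and 14.7% of all genes. The log2 fold changes of the 6 ranged from -0.33 to 0.65. A log2 signal of 6 served as a limit for dim signals. It is not a detection call, since of 30 measured genes restricted to other tissues 22 lay under it, with a median of 5.39 and a 90th percentile of 6.86. Signals of different probe sets were not set against each other, because each binds with its own strength.

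Type IV collagen genes lie head to head in pairs, and the start regions of the pairs are shown because the starts of 2 genes lie close together there. In RefSeq on GRCh38.p14, the starts of COL4A1 and COL4A2 on chromosome 13 had 126 bases between them, those of COL4A4 and COL4A3 on chromosome 2 had 418 and those of COL4A6 and COL4A5 on the X chromosome had 379, while a second annotated start of COL4A6 lay 1415 bases from that of COL4A5. The whole shared stretch of the first pair is printed below, together with 250 bases before the start of COL4A4 and of COL4A5. The 250 bases before the starts of COL12A1 and COL6A3 follow, since these genes moved most clearly up and down among collagens with a mean of 6 or more in both groups. Capitals mark CCAAT and GGGCGG, the letters of the CCAAT box and of the GC box, on either strand, and the matches do not overlap.
COL4A1 to COL4A2, chr13:110307158-110307283, plus strand: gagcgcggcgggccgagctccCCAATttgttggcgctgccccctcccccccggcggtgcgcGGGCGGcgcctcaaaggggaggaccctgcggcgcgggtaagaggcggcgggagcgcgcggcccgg
COL4A4, chr2:227164206-227164455, minus strand: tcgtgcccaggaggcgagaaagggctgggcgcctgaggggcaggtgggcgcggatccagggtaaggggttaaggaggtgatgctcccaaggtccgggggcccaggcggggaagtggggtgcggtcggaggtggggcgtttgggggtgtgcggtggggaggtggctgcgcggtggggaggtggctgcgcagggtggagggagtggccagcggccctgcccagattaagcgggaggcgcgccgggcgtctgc
COL4A5, chrX:108439588-108439837, plus strand: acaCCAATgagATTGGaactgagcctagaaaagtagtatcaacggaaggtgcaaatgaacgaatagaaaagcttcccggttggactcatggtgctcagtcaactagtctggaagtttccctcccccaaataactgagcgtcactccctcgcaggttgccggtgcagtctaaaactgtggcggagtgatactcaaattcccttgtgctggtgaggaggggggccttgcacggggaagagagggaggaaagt
COL12A1, chr6:75206054-75206303, minus strand: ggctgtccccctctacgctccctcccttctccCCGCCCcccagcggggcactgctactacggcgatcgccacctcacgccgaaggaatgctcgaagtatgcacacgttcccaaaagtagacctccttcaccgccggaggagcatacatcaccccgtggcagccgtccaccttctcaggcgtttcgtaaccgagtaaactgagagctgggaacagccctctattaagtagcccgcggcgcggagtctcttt
COL6A3, chr2:237414165-237414414, minus strand: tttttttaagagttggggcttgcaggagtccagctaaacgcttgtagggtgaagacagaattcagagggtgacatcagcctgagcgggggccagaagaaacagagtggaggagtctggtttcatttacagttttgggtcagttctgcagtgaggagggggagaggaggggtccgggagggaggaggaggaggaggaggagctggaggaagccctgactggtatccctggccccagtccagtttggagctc

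The stretch between COL4A1 and COL4A2 held 1 CCAAT and 1 GGGCGG and had 80.2% G+C. The window of COL4A5 held 2 CCAAT, that of COL12A1 held 1 GGGCGG, and those of COL4A4 and COL6A3 held neither. A promoter window was found for 26 of the 35 genes, in 37 windows, beside 35116 windows of all genes. COL1A1, COL1A2, COL2A1, COL3A1, COL5A2, COL6A1, COL8A1, COL9A3 and COL14A1 had none. Genes with several annotated starts count with several windows, and some windows overlap, so the shares are over windows and not over genes. Over the 250 bases before the start, the collagen windows had a median of 64.0% G+C against 58.0% in all windows, and the median longest run of A and T was 6 bases in both. TATAAA, the letters of the TATA box, stood in 18.9% of the collagen windows and in 10.7% of all windows. CCAAT stood in 29.7% against 32.0%, and GGGCGG in 56.8% against 42.6%, all counted on both strands. These are matches of letters and say nothing of which factor binds.

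Collagen genes differed between siHMGA1 and siCTRL in both directions. The methods name 1 siRNA against HMGA1 for the arrays, so its effects on other messages cannot be told apart from the loss of HMGA1. At an adjusted p under 0.05 from limma, 7 of 34 were higher in siHMGA1 and 7 were lower, and the median log2 fold change was -0.01. Over all 19775 genes, 30.5% passed, 15.8% higher and 14.7% lower, with a median of 0.01. The arrays of the 2 groups did not overlap for 7 collagen genes that were higher and 7 that were lower, beside 17.0% and 15.6% of all genes, or 32.6% in either direction. The stricter thresholds of the methods, an adjusted p under 1e-04 and a log2 fold change beyond 1.4, were met by 1 collagen gene, COL3A1, and by 0.627% of all genes. Of the 34 genes, 16 had a mean under 6 in both groups. Among the 18 others, 4 were higher and 6 lower, and of all genes with a mean of 6 or more in a group 22.8% were higher and 21.2% lower. Read against these shares, the counts of collagen genes lie near the background. The count of higher genes was 4 without replicate 4 of siCTRL and 4 without replicate 3 of siHMGA1. Centring on housekeeping genes gave 10 higher and 6 lower, and it moved the share of higher genes among all called genes from 51.8% to 68.2%. Of the 9 housekeeping genes measured, 2 were themselves higher and 2 lower. Their log2 fold changes ranged from -0.64 to 0.18 with a median of 0.0006, so this centring rests in part on genes that moved.

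**Figure D1:**
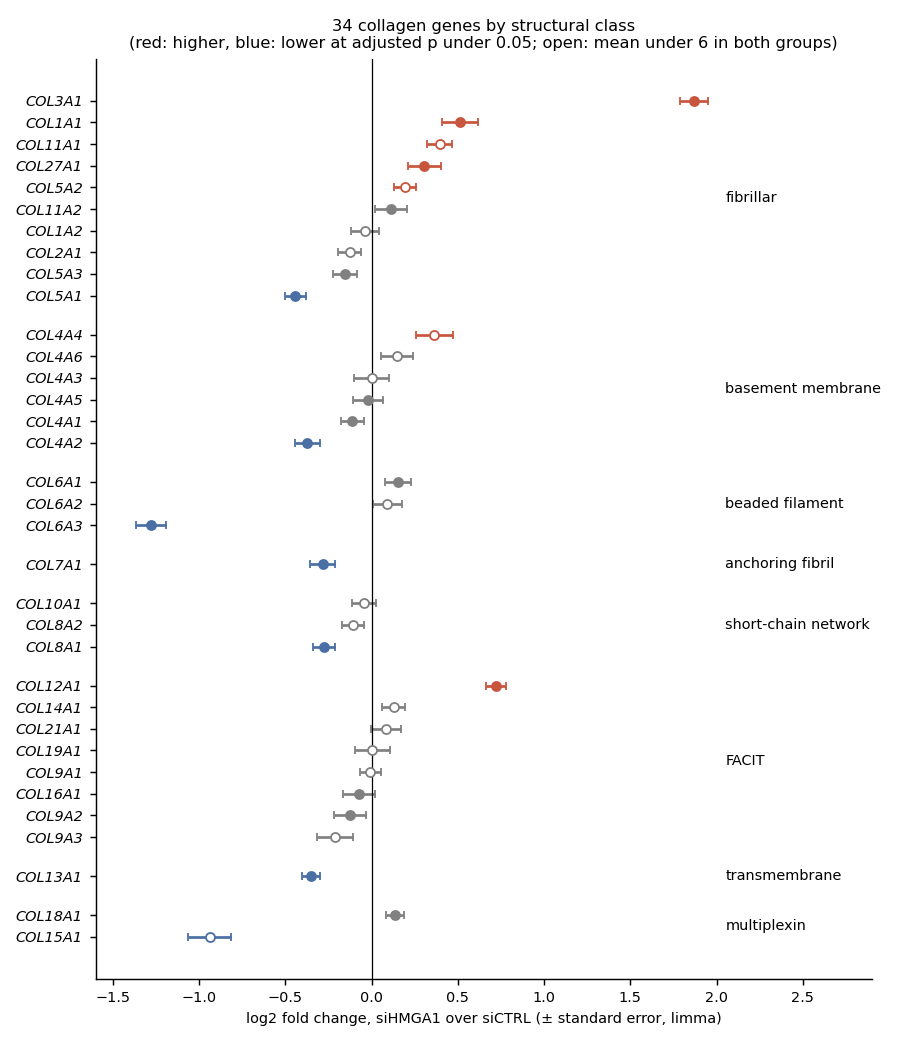
Log2 fold change of siHMGA1 over siCTRL (horizontal axis) with its limma standard error for 34 collagen genes, ordered within structural classes, where red and blue points passed an adjusted p under 0.05 and open points had a mean log2 signal under 6 in both groups. COL3A1 at 1.87 and COL6A3 at -1.28 lie farthest from 0, and 5 of the 10 fibrillar genes are red while 1 is blue. Of all genes, 15.8% were higher and 14.7% lower.

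The fibrillar class had 5 genes higher and 1 lower, with a median of 0.15, where 15.8% of all genes were higher and 14.7% lower. Among its 6 genes with a mean of 6 or more in a group, 3 were higher and 1 lower. Of all genes at that level 22.8% were higher and 21.2% lower. The other collagens had 1 higher and 5 lower, with a median of -0.06 that became 0.02 when arrays were centred on housekeeping genes. The type IV genes had 1 higher and 1 lower, with a median of -0.01 that became 0.07 under the same centring. Without probe sets of the kinds _s_at and _x_at, which can bind several transcripts, the fibrillar median was -0.05 over 9 genes. The difference between the classes was not tested.

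COL3A1, the chain of type III collagen that accompanies type I in extensible tissues, rose most. Its log2 signal was 5.63, 5.76, 5.97 and 5.79 across siCTRL arrays and 7.73, 7.76, 7.53 and 7.60 across siHMGA1 arrays. Every siHMGA1 array was well above every siCTRL array, and every siCTRL array was under 6. The mean went from 5.79 ± 0.137 to 7.66 ± 0.112 (SD, n = 4 each), a 3.65-fold higher signal (log2 fold change 1.87, limma standard error 0.0816, adjusted p = 4.73e-08). Low signals are compressed by background in RMA, so a fold from a control near background is uncertain.

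The 5 COL3A1 probe sets did not all move. A second one went from 4.51 to 6.23 (log2 fold change 1.72) and another from 4.01 to 4.93 (0.92), both past an adjusted p of 0.05 over all probe sets, of which 11.7% were higher and 10.4% lower. The remaining pair, both of the gene-specific kind _at, had means under 4 in both groups and changes of 0.04 and 0.01. The 3 that rose were all of the kinds _s_at or _x_at, and without those kinds COL3A1 had a log2 fold change of 0.04 (limma adjusted p = 0.720).

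Among 7 fibroblast markers, the listed genes that a fibroblast would bring along with COL3A1, 1 passed the test, beside 30.5% of all genes. LUM, which encodes the fibril-binding proteoglycan lumican, went from 5.51 ± 0.294 to 6.16 ± 0.191 (SD, n = 4 each, log2 fold change 0.65, limma adjusted p = 0.0033). The mean signal over the 7 markers was 5.25 to 5.35 over siCTRL arrays and 5.38 to 5.48 over siHMGA1 arrays, so the groups did not overlap, and 4 of the 7 had a mean under 6. FAP was at 4.23 and 4.36, POSTN at 3.53 and 3.59, and PDGFRA at 4.48 and 4.51 in siCTRL and siHMGA1. DCN, PDGFRB and THY1 had a mean of 6 or more and did not pass. Of the 7 log2 fold changes 5 were above 0, and they ranged from -0.10 to 0.65, the highest being that of LUM. Without _s_at and _x_at probe sets LUM had 0.10 (limma adjusted p = 0.235). PTPRC, the common leukocyte antigen, went from 4.67 to 5.17 (log2 fold change 0.50, adjusted p under 0.05). It was the 1 of 4 measured leukocyte markers that passed, beside the same 30.5% of all genes. The part of the cells that these markers stand for in the change of COL3A1 was not tested. In RNA from a whole culture, more cells that express a gene and more message per cell cannot be told apart.

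COL1A1, the alpha 1 chain of type I collagen, rose as well. Its signal was 8.73, 8.94, 9.23 and 8.88 in siCTRL and 9.30, 9.57, 9.43 and 9.53 in siHMGA1. The lowest siHMGA1 array was just above the highest siCTRL array. The means were 8.94 ± 0.214 and 9.46 ± 0.124 (SD, n = 4 each), a 1.43-fold change (log2 fold change 0.51, limma standard error 0.103, adjusted p = 0.0024). Its 4 other probe sets had changes of 0.04 to 0.27, none of which passed over all probe sets. All COL1A1 probe sets were of the kinds _s_at or _x_at. COL1A2, the partner chain of type I collagen, was dim, at 5.49 in siCTRL and 5.45 in siHMGA1 (log2 fold change -0.04, 95% confidence interval -0.22 to 0.14).

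The type V collagen chains, which set the diameter of type I fibres, went in opposite directions. COL5A1 had signals of 9.88, 9.82, 9.77 and 9.86 in siCTRL and 9.34, 9.50, 9.31 and 9.41 in siHMGA1. The groups lay apart with little spread in either. Its log2 fold change was -0.44 (standard error 0.0610, limma adjusted p = 1.67e-04), and all 3 of its probe sets were lower, with log2 fold changes of -0.44, -0.51 and -0.48. COL5A2 had a mean of 5.59 in siCTRL and 5.78 in siHMGA1 (log2 fold change 0.19, limma adjusted p = 0.0448). Its 2 probe sets changed by 0.16 and 0.19, and its call was lost under 14 of 17 other settings, including those without any 1 array other than replicate 1 of siHMGA1 (adjusted p = 0.0518 to 0.131). COL5A3 had a log2 fold change of -0.15 and did not pass (95% confidence interval -0.31 to 0.00).

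The remaining fibrillar genes are chains of types XI, XXVII and II. COL11A1, a minor chain of cartilage fibrils, was dim in both groups and went from 5.44 ± 0.0410 to 5.83 ± 0.142 (SD, n = 4 each, log2 fold change 0.39, limma adjusted p = 0.0015). Its 4 siHMGA1 arrays (5.63 to 5.96) were all above the siCTRL arrays (5.38 to 5.48), and its call was lost with the probe set of largest interquartile range (adjusted p = 0.150). COL27A1, a fibrillar collagen of developing cartilage, had signals of 8.53, 8.27, 8.34 and 8.03 in siCTRL and 8.52, 8.54, 8.64 and 8.69 in siHMGA1. The highest siCTRL array reached the siHMGA1 range. Its log2 fold change was 0.31 (standard error 0.0955, limma adjusted p = 0.0303), and a second of its 5 probe sets also passed, at 0.41. The COL27A1 call was lost without replicate 2, 3 or 4 of siCTRL (adjusted p = 0.0610, 0.0503 and 0.0681) and without replicate 3 or 4 of siHMGA1 (0.0750 and 0.0822). COL11A2 (log2 fold change 0.11) and COL2A1 (-0.13, dim) did not pass.

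**Figure D2:**
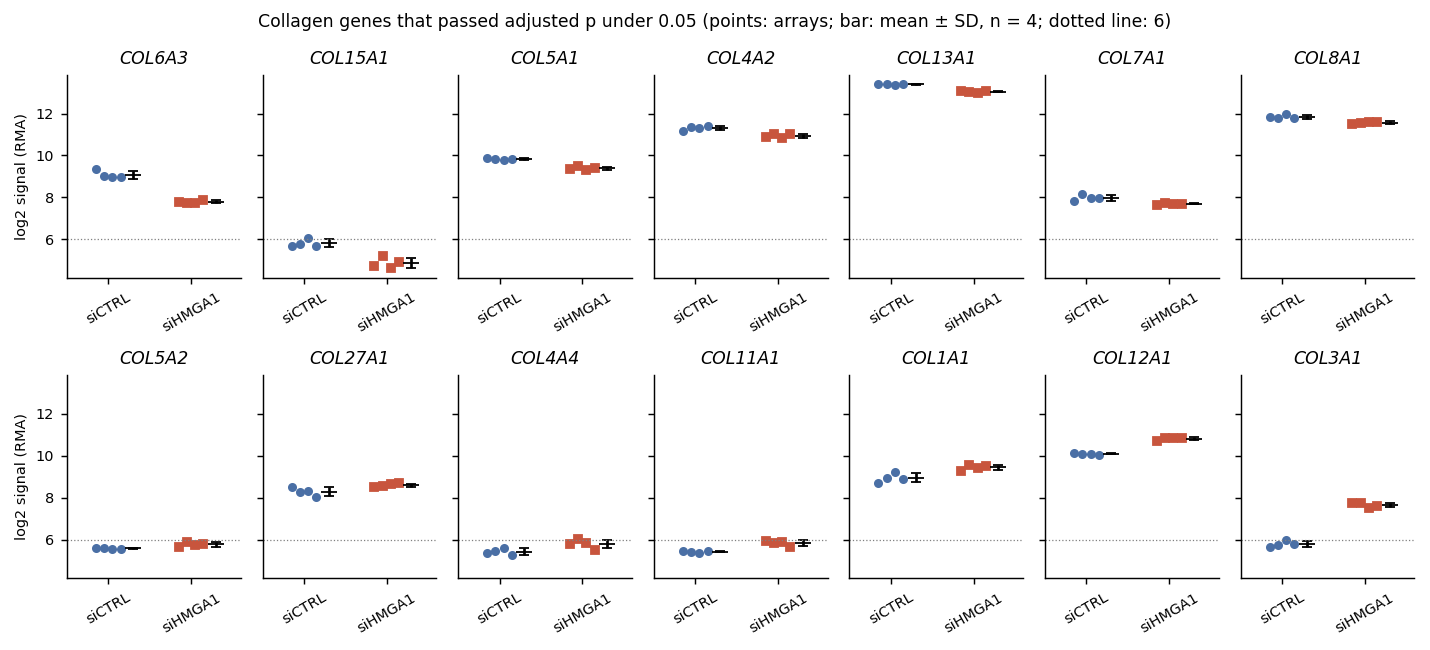
Log2 RMA signal (vertical axis) in each of the 4 siCTRL (blue circles) and 4 siHMGA1 arrays (red squares) for the 14 collagen genes that passed, with the 7 lower genes above and the 7 higher genes below. Bars give the mean ± SD (n = 4) and the dotted line marks 6. The groups lie apart for COL6A3, COL12A1 and COL3A1, and COL3A1 starts under the dotted line in siCTRL.

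In the basement membrane class, COL4A2 fell and its neighbour COL4A1 did not pass. COL4A1 and COL4A2 encode the chains of the classical type IV network, which is found in nearly all basement membranes. COL4A2 had signals of 11.16, 11.36, 11.33 and 11.40 in siCTRL and 10.90, 11.02, 10.81 and 11.02 in siHMGA1. No siHMGA1 array reached the lowest siCTRL array. Its log2 fold change was -0.37 (standard error 0.0734, limma adjusted p = 0.0022), and its second probe set was also lower, at -0.64. COL4A1 had signals of 10.93, 10.83, 10.66 and 10.85 in siCTRL and 10.75, 10.70, 10.64 and 10.73 in siHMGA1. The groups overlapped, with a log2 fold change of -0.11 (95% confidence interval -0.26 to 0.04, limma adjusted p = 0.258), and its second probe set had 0.23 (adjusted p = 0.191). The pair shares the 126 bases printed above, while the difference between their changes was 0.26 (standard error 0.103, exact two-sided permutation p = 0.0857).

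The other type IV genes are those of tissue-restricted networks, such as that of the kidney glomerulus. COL4A4 was dim, with signals of 5.38, 5.46, 5.63 and 5.26 in siCTRL and 5.79, 6.02, 5.84 and 5.53 in siHMGA1, and the groups overlapped. It passed with a log2 fold change of 0.36 (standard error 0.105, limma adjusted p = 0.0200), and a second of its 3 probe sets had 0.33. The COL4A4 call was lost without replicate 4 of siCTRL (adjusted p = 0.0584) and without replicate 2 or 3 of siHMGA1 (0.0609 and 0.0529). COL4A3, whose start lies 418 bases from that of COL4A4, had a mean of 4.70 in both groups and none of its 7 probe sets passed. COL4A5 had a mean of 8.00 and 7.98 (95% confidence interval of the difference -0.21 to 0.17), and its neighbour COL4A6 was dim with 0.15.

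Among the other collagens, 1 chain of type VI fell steeply. Type VI collagen forms beaded filaments from chains alpha 1, alpha 2 and alpha 3, and it links cells to the surrounding matrix. COL6A3, the alpha 3 chain, had signals of 9.34, 9.02, 8.96 and 8.95 in siCTRL and 7.79, 7.72, 7.76 and 7.89 in siHMGA1. All siHMGA1 arrays lay far below all siCTRL arrays. The means were 9.07 ± 0.184 and 7.79 ± 0.0723 (SD, n = 4 each), so 41.2% of the control signal was left (log2 fold change -1.28, limma standard error 0.0877, adjusted p = 8.38e-07), with 1 probe set for this gene. The log2 fold change of COL6A3 stayed between -1.32 and -1.19 under 18 other settings, and the call was kept in each.

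COL6A1 did not follow COL6A3. Its signal was 10.26, 10.41, 10.23 and 10.10 in siCTRL and 10.38, 10.52, 10.31 and 10.41 in siHMGA1, with overlapping groups and a log2 fold change of 0.15 (95% confidence interval -0.01 to 0.32, limma adjusted p = 0.166). A second of its 8 probe sets rose from 7.22 to 7.67 (log2 fold change 0.46, adjusted p = 0.0012 over all probe sets). COL6A2 was just under 6 in both groups, at 5.89 and 5.98, and did not pass.

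Pairs of chains that assemble into 1 molecule were then set against each other within each array, for 5 pairs. COL6A1 changed by 1.43 more than COL6A3 (standard error 0.121, exact two-sided permutation p = 0.0286, adjusted over the 5 pairs 0.0714). COL5A1 changed by -0.64 relative to COL5A2 (standard error 0.0405, exact permutation p = 0.0286, adjusted 0.0714), where COL5A2 was dim in both groups, so its own change is uncertain. The value of 0.0286 is the smallest p that 4 arrays against 4 allow, and no pair passed 0.05 after adjustment. Over 5 pairs, a pair at this smallest p can pass only if enough other pairs reach it too. Not passing therefore does not show that the chains of a pair changed alike. COL1A1 changed by 0.55 more than COL1A2 (exact permutation p = 0.0571, adjusted 0.0952), where COL1A2 was dim. COL6A1 and COL6A2 differed by 0.06 (exact permutation p = 0.686).

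Collagen XII rose in the FACIT class. COL12A1 encodes a FACIT that coats type I fibrils and bridges them to other matrix. Its signals were 10.11, 10.08, 10.10 and 10.06 in siCTRL and 10.71, 10.84, 10.85 and 10.84 in siHMGA1. The siCTRL arrays had an SD of 0.0255, and the siHMGA1 arrays all lay above them. The signal was 1.65-fold higher (log2 fold change 0.72, limma standard error 0.0563, adjusted p = 2.20e-06). Of its 5 probe sets 3 passed, at 0.72, 0.46 and 0.71, and the dimmest pair had 0.08 and 0.14. None of the 7 other FACIT genes passed. Of these, COL9A2 and COL16A1 had a mean over 6, with changes of -0.12 and -0.07, and the 5 dim ones ranged from -0.21 to 0.13. COL14A1 was dim, and its groups lay apart, with 4.91 and 5.04, without passing the test.

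Collagen XIII, a transmembrane collagen found at cell-matrix adhesions, fell slightly but evenly. COL13A1 had signals of 13.39, 13.39, 13.36 and 13.42 in siCTRL and 13.06, 13.04, 13.00 and 13.06 in siHMGA1. The SD was 0.0243 and 0.0271, so the log2 fold change of -0.35 was far larger than the spread (standard error 0.0519, limma adjusted p = 2.87e-04). All 3 of its probe sets were lower, at -0.35, -0.50 and -0.39. Signals this bright can be close to saturation, where changes are understated.

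The 2 multiplexins, whose cleaved ends include endostatin from type XVIII, differed from each other. COL15A1 had signals of 5.69, 5.80, 6.09 and 5.68 in siCTRL and 4.75, 5.22, 4.64 and 4.91 in siHMGA1. The groups lay apart, but both means, 5.81 ± 0.187 and 4.88 ± 0.252 (SD, n = 4 each), were under 6. Its log2 fold change was -0.94 (standard error 0.125, limma adjusted p = 1.29e-04), from 1 probe set. COL18A1 had signals of 8.89, 8.89, 8.92 and 8.91 in siCTRL and 8.99, 9.06, 9.05 and 9.07 in siHMGA1, with every siHMGA1 array higher. That difference was 0.14 (95% confidence interval 0.02 to 0.25) and did not pass after adjustment (limma adjusted p = 0.0700). Its second probe set went the other way, from 8.75 to 8.64 (log2 fold change -0.10, limma adjusted p = 0.594 over all probe sets). COL18A1 passed after centring on housekeeping genes and without dim genes (limma adjusted p = 0.0085 and 0.0288), and by the methods' t-test (adjusted p = 0.0034).

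COL7A1 and COL8A1 fell by similar amounts. COL7A1 encodes the anchoring fibril that ties the basement membrane to the tissue beneath. It had signals of 7.81, 8.16, 7.95 and 7.98 in siCTRL and 7.66, 7.72, 7.71 and 7.69 in siHMGA1 (log2 fold change -0.28, limma standard error 0.0729, adjusted p = 0.0110). Its second probe set went from 7.66 to 6.96, a change of -0.70. Centring on housekeeping genes left COL7A1 at -0.21 (adjusted p = 0.0523).

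COL8A1, a short-chain collagen of vessel walls and the cornea, had signals of 11.83, 11.78, 11.97 and 11.78 in siCTRL and 11.49, 11.53, 11.62 and 11.61 in siHMGA1. All siHMGA1 arrays were lower (log2 fold change -0.28, limma standard error 0.0637, adjusted p = 0.0059). A second probe set was at -0.30 and did not pass (adjusted p = 0.0787 over all probe sets). The dimmest of the 3 went the other way, from 3.97 to 4.59 (log2 fold change 0.62, adjusted p = 2.15e-04 over all probe sets). The mean of the 3 probe sets gave a log2 fold change of 0.02 for COL8A1. COL8A2 and COL10A1 were dim and did not pass.

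**Figure D3:**
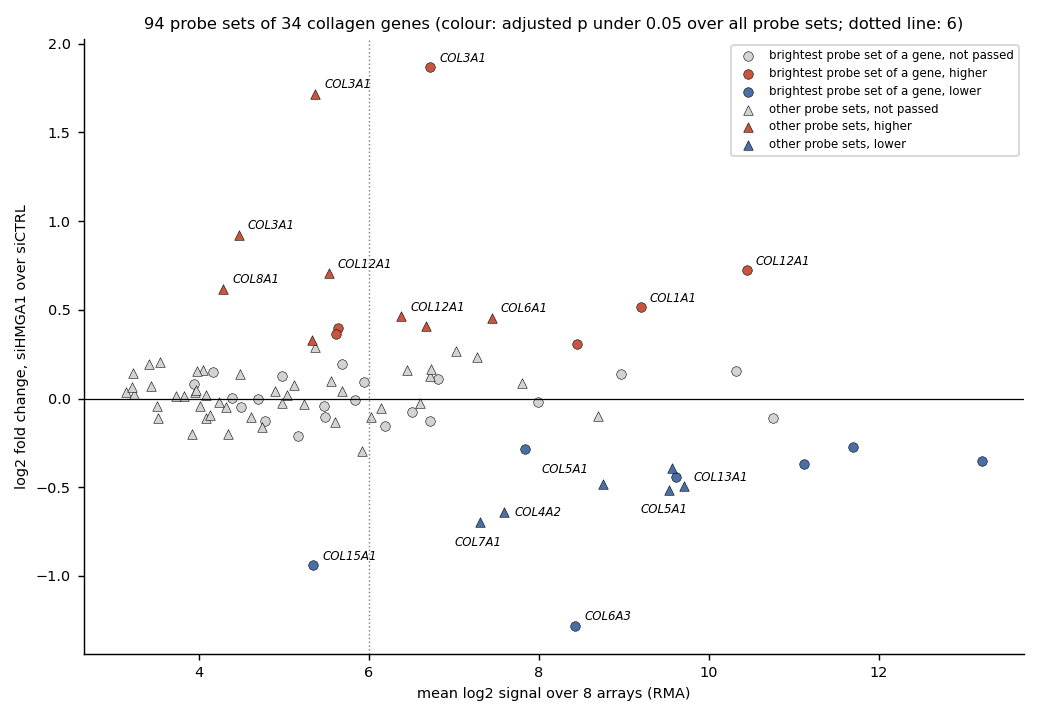
Log2 fold change of siHMGA1 over siCTRL (vertical axis) against the mean log2 signal over 8 arrays (horizontal axis) for the 94 probe sets of 34 collagen genes, with circles for the brightest probe set of a gene, triangles for the others, and colour where a probe set passed an adjusted p under 0.05 over all probe sets. The COL3A1 probe sets that rose (1.87, 1.72 and 0.92) lie around and under 6, and those of COL5A1 that fell (-0.44, -0.51 and -0.48) lie well above it.

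A further 9 collagen genes outside the 35 were measured, and none passed the test, beside 30.5% of all genes. The changes of the 9 ranged from -0.18 to 0.17, and 8 of the 9 were dim in both groups. Calls were more frequent among all genes with a mean of 6 or more in a group (22.8% higher and 21.2% lower). The count therefore says little about these 9 genes.

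Genes that process collagen were also read from the same fit. New chains are hydroxylated and folded in the endoplasmic reticulum, and of 16 measured genes of modification and folding 4 were higher and 3 lower (median -0.03), where 15.8% of all genes were higher and 14.7% lower. P3H2, a prolyl 3-hydroxylase, had signals of 10.35, 10.28, 10.44 and 10.21 in siCTRL and 9.47, 9.56, 9.60 and 9.64 in siHMGA1. The groups lay apart (log2 fold change -0.75, limma adjusted p = 5.45e-06), but without _s_at and _x_at probe sets P3H2 had 0.07. CRTAP, which works in a complex with P3H1, fell by 0.42 on the log2 scale, whereas P3H1 itself rose by 0.30 (limma adjusted p = 3.31e-04 and 0.0032). P3H4 rose by 0.54 and COLGALT1, which adds galactose to hydroxylysine, by 0.30. PLOD1, a lysyl hydroxylase, fell by 0.33. The fourth higher gene, PPIB, a prolyl isomerase named after its values were seen, had 0.23 (limma adjusted p = 0.0060). SERPINH1, the collagen chaperone HSP47, and the prolyl 4-hydroxylase genes P4HA1, P4HA2 and P4HB did not pass.

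Procollagen is too long for ordinary transport vesicles and needs an enlarged COPII coat to leave the endoplasmic reticulum. Of 6 export genes, 2 were lower and 1 higher, beside 30.5% of all genes called in either direction. PREB, which starts the assembly of the coat, had signals of 9.46, 9.63, 9.52 and 9.46 in siCTRL and 8.57, 8.48, 8.54 and 8.59 in siHMGA1, with the groups far apart (log2 fold change -0.98, limma standard error 0.0610, adjusted p = 4.47e-07). SEC24D, a coat subunit that picks cargo, had 9.03, 8.99, 9.14 and 9.04 in siCTRL and 8.11, 7.76, 8.24 and 8.27 in siHMGA1 (log2 fold change -0.96, adjusted p = 2.50e-05). MIA3, the procollagen receptor TANGO1, had overlapping groups and a log2 fold change of 0.32 (limma adjusted p = 0.0212). That call was lost without replicate 1 or 3 of siCTRL and without replicate 2 or 4 of siHMGA1 (adjusted p = 0.0551, 0.0656, 0.0672 and 0.0585), and without _s_at and _x_at probe sets MIA3 had -0.15. SEC23A, KLHL12 and MIA2 did not pass.

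Outside the cell, propeptides are clipped and chains are cross-linked. Of 14 genes of maturation and cross-linking, 2 were higher and 4 lower (median -0.08), beside 15.8% and 14.7% of all genes. Of the 5 lysyl oxidase genes, LOXL4 was higher, LOXL2 and LOX were lower, and LOXL1 and LOXL3 did not pass. LOXL4 had signals of 11.36, 11.40, 11.32 and 11.05 in siCTRL and 12.03, 12.29, 12.22 and 12.09 in siHMGA1 (log2 fold change 0.87, limma standard error 0.0880, adjusted p = 1.56e-05). LOXL2, which cross-links type IV collagen, had 11.79, 12.43, 11.96 and 12.20 in siCTRL and 11.15, 11.35, 11.22 and 11.30 in siHMGA1 (log2 fold change -0.84, standard error 0.118, adjusted p = 1.93e-04). In both genes the groups lay apart, in opposite directions. LOX, named after its values were seen, went from 10.13 to 9.86 (log2 fold change -0.26, limma adjusted p = 0.0163). LOXL1 and LOXL3 had changes of -0.0094 and -0.04. PXDN, the peroxidase that makes the sulfilimine bonds of type IV collagen, rose by 0.27 on the log2 scale (adjusted p = 0.0036). ADAMTS3, an N-propeptidase, fell by 0.50 (adjusted p = 0.0036) and PCOLCE2, an enhancer of C-propeptide removal, by 0.38 (adjusted p = 0.0165). The PCOLCE2 call was lost without replicate 2 of siHMGA1 (adjusted p = 0.0533).

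**Figure D4:**
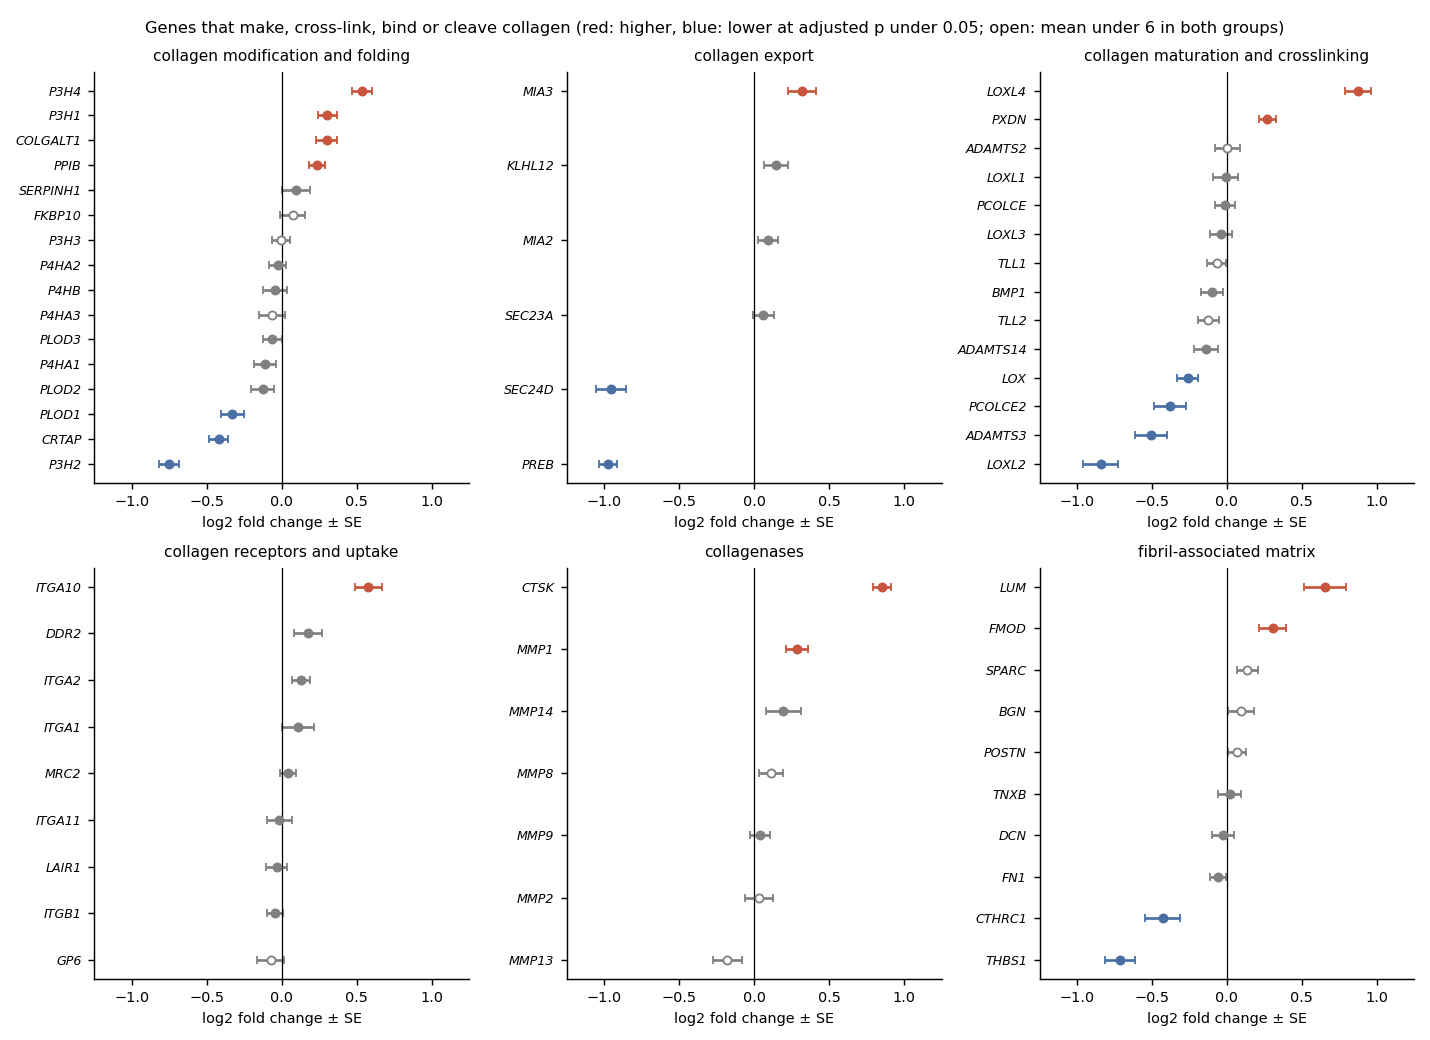
Log2 fold change of siHMGA1 over siCTRL (horizontal axis) with its limma standard error for the measured genes of 6 lists that make, export, cross-link, bind or cleave collagen, where red and blue points passed an adjusted p under 0.05 and open points had a mean log2 signal under 6 in both groups. Each list holds genes near 0, and the points farthest out are PREB (-0.98) and SEC24D (-0.96) among the lower and LOXL4 (0.87) and CTSK (0.85) among the higher genes.

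Of 9 measured collagen receptors and uptake genes, 1 passed, beside 30.5% of all genes. ITGA10, the alpha 10 subunit of a collagen-binding integrin, had signals of 9.32, 9.40, 9.49 and 9.08 in siCTRL and 9.78, 10.05, 9.90 and 9.87 in siHMGA1 (log2 fold change 0.58, limma standard error 0.0909, adjusted p = 4.44e-04). Its partner ITGB1 and the collagen receptor subunits ITGA1, ITGA2 and ITGA11 did not pass. Of 7 collagenases 2 passed limma's test as higher and none as lower (median 0.11), beside 15.8% and 14.7% of all genes. CTSK, the lysosomal cathepsin K that cuts the triple helix, had 6.39, 6.29, 6.32 and 6.19 in siCTRL and 7.15, 7.15, 7.18 and 7.10 in siHMGA1 (log2 fold change 0.85, adjusted p = 9.40e-07). MMP1, interstitial collagenase, rose by 0.29 on the log2 scale (adjusted p = 0.0124), and MMP2 and MMP9 did not pass.

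Of 10 matrix genes whose products sit on or near collagen fibrils, 2 were higher and 2 lower, beside 30.5% of all genes called in either direction. THBS1, thrombospondin 1, had signals of 12.60, 12.71, 12.80 and 12.86 in siCTRL and 11.79, 11.92, 12.21 and 12.19 in siHMGA1 (log2 fold change -0.72, limma standard error 0.0992, adjusted p = 1.75e-04), and its groups lay apart. CTHRC1, a secreted protein with a short collagen-like stretch, fell by 0.43 on the log2 scale (adjusted p = 0.0162), and its call was lost without replicate 2 of siHMGA1 (adjusted p = 0.0519). The proteoglycan genes LUM, described above, and FMOD, at 0.30 (adjusted p = 0.0248), were higher. LUM had 0.10 (adjusted p = 0.235) without _s_at and _x_at probe sets, and FMOD lost its call without replicate 1, 3 or 4 of siCTRL and replicate 2 or 3 of siHMGA1 (adjusted p = 0.0560 to 0.0773). DCN, BGN and FN1, for decorin, biglycan and fibronectin, did not pass.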

How the data were processed

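Total RNA of MDA-MB-231 cells was hybridised to Affymetrix arrays with hgu133plus2 probe sets. The authors made and deposited log2 signals per probe set with RMA, after background correction, quantile normalisation and summarisation, which removes differences in total signal between arrays. The submitters' notes name RMA and affy without versions. The methods give 4 replicates in one section and 3 in another, and 4 arrays per group were used. The number of arrays limits the precision.

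Of 54675 probe sets, 41091 had 1 gene name, and the brightest stood for each of 19775 genes. siHMGA1 was compared with siCTRL by limma (version 3.58.1, R 4.3.3, default settings, no covariate), adjusted by Benjamini and Hochberg over all genes, with 95% confidence intervals. On simulated data with the spread of these arrays over 19775 genes, limma called 9 of 50 genes with a log2 change of 0.25. It called 39 of 50 at 0.5, 50 of 50 at 1, and 7 of 19575 unchanged genes. Few genes were changed in the simulation, whereas 30.5% of all genes passed in the data. The adjustment is therefore stricter in the simulation, and its shares of called genes do not carry over to the data. Promoter windows are those of RefSeq. Protein features were planned and not analysed here.

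The members and lists were chosen with earlier results of these data known. Members that passed or had a group mean of 6 or more are described, and of each other list up to 4 genes with the largest change and up to 2 of the opposite direction.

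The alternatives were a replicate block, cyclic loess, housekeeping centring, no dim genes, the mean or another choice of a gene's probe sets, a trended and robust fit, array weights, the methods' t-test, leaving out each array and the thresholds of the methods, an adjusted p under 1e-04 and a log2 fold change beyond 1.4.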

Additional observations from a re-analysis of the deposited data

Results flagged for a closer look

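Within groups of 4 arrays, 1 array stood far from the other 3 in 9 of 112 groups tested, over HMGA1, the 34 collagen genes and the named genes of the other lists. Chance alone flags about 1 group in 20.

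For COL6A3, replicate 1 of siCTRL was at 9.34 and the others at 8.95 to 9.02. For COL12A1, replicate 1 of siHMGA1 was at 10.71 and the others at 10.84 to 10.85. Both genes kept their calls without these arrays.

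Among dim collagens, COL14A1 and COL21A1 were high in replicate 1 of siHMGA1, at 5.20 (others 4.97 to 4.99) and 4.08 (others 3.95 to 3.97). In replicate 2 of siHMGA1, COL19A1 was high at 4.55 (others 4.32 to 4.35) and COL9A3 low at 4.85 (others 5.12 to 5.14).

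ADAMTS3 was low in replicate 2 of siHMGA1, at 6.21 (others 6.32 to 6.34). PCOLCE2 was low in replicate 2 of siCTRL, at 6.95 (others 7.35 to 7.42), and CTHRC1 was high in replicate 1 of siCTRL, at 9.16 (others 8.64 to 8.69).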

How the results depend on the processing

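Of 590 values of the 34 collagen genes under other settings, 513 kept their direction and side of the threshold, 27 lost the call, 9 gained it and 41 changed sign. COL1A1, COL12A1, COL5A1, COL4A2, COL6A3, COL13A1 and COL15A1 kept their calls under every setting run for them. COL1A1 and COL13A1 have only _s_at or _x_at probe sets, so the setting without these kinds could not be run for them. COL15A1 was dim and was absent from the setting without dim genes. The count of higher genes was 4 to 7 when 1 array was left out, and the thresholds of the methods left 1 higher (COL3A1) and 0 lower, where limma at an adjusted p under 0.05 called 7. The cause of the changes was not tested.

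The fibrillar median of 0.15 was 0.10 with the mean of a gene's probe sets, -0.053 without _s_at and _x_at probe sets, 0.041 with the probe set of largest interquartile range, 0.23 after centring on housekeeping genes, 0.21 without dim genes and 0.12 to 0.19 with 1 array left out. The basement membrane median of -0.01 was 0.063 by interquartile range, 0.066 after centring, -0.11 without dim genes and -0.070 to 0.030 with 1 array left out. The median of the other collagens, -0.06, was -0.013 with the mean, -0.11 without _s_at and _x_at, -0.021 by interquartile range, 0.017 after centring and -0.12 without dim genes.

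Only 2 called collagen genes changed sign. COL8A1 had 0.016 with the mean and 0.62 by interquartile range, and COL27A1 had -0.029 by interquartile range. Uncalled collagen genes changed sign as follows. With the mean, COL4A1 had 0.061, COL4A3 0.010, COL4A6 -0.047, COL6A2 -0.022 and COL9A1 0.0076. By interquartile range, COL4A1 had 0.23, COL8A2 0.017, COL9A1 0.023 and COL18A1 -0.10. Without _s_at and _x_at, COL11A2 had -0.053, COL4A5 0.018 and COL6A2 -0.13. After centring, COL1A2 had 0.036, COL4A3 0.076, COL4A5 0.055, COL10A1 0.031, COL9A1 0.068 and COL16A1 0.0021. Of the called genes of the other lists, P3H2 (0.067) and MIA3 (-0.15) changed sign without _s_at and _x_at. Among uncalled collagen genes with array weights, COL4A5 had 0.016, COL9A1 0.0017 and COL19A1 -0.054, and with cyclic loess COL19A1 had -0.0033. With 1 array left out, COL1A2 ranged from -0.10 to 0.0041, COL4A3 from -0.098 to 0.061, COL4A5 from -0.077 to 0.063, COL9A1 from -0.049 to 0.013, COL19A1 from -0.069 to 0.081 and COL21A1 from -0.0053 to 0.13.

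Same-numbered arrays did not pair, since their deviations correlated at 0.0664, 0.269, 0.107 and -0.123 and 2 of 8 arrays correlated best with their own number. With the replicate number as a block, 6 collagen genes were higher and 7 lower. Both groups hold the same replicate numbers, so a block can change only the p-values. The class medians (0.15, -0.01 and -0.06) and the log2 fold change of HMGA1 (-2.42) had to stay the same and are no check.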
